A study of Mus musculus with 6 samples.

Results

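The genes described here mark the cells of brain vessels, 18 genes of endothelial cells and 13 of mural cells, which are the pericytes and smooth muscle cells on the outer side of the vessel wall. They were taken as a list of 31 gene names, read by Ensembl identifier from a table of 35275 identifiers, and all 31 were found and passed the filter on low counts. RNA came from the forebrains of 6 C57BL/6 mice, taken at postnatal day 9. In the conditional knockout group (cKO) were 3 mice of the genotype Pdgfra-CreER:Parp1fl/fl, in which Parp1 is deleted after tamoxifen in cells that express Pdgfra. The control group was 3 Parp1fl/fl littermates without Cre. Every mouse of both groups had been given tamoxifen by intraperitoneal injection once a day on postnatal days 1 to 3. Mice of both sexes were used, per the series' design text. The recombinase is driven by Pdgfra, a gene best known from oligodendrocyte precursors and brain fibroblasts, and recombination in vessel cells was not measured. The samples are whole forebrain, so fewer vessel cells and less RNA per vessel cell cannot be told apart.

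Brain endothelial cells are sealed by tight junctions and carry selective transporters, and this barrier is built during the embryonic and early postnatal period under Wnt signals from neural cells and with the help of pericytes. Vessel growth is steered by vascular endothelial growth factor and angiopoietin receptors on the endothelium, while platelet-derived growth factor from endothelial cells recruits mural cells. Oligodendrocyte precursors migrate along vessels and secrete Wnt ligands that act on the endothelium.

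Upstream sequences are shown for 5 members as examples. They are Flt1, Cd34 and Cldn5 of the endothelium, Kcnj8 of pericytes and Myl9 of the contractile genes. Each is taken from RefSeq (build GRCm38.p6), 5′ to 3′ on the gene's own strand, and ends at the base before the transcription start, or before the first annotated exon. Capitals mark the hexamer AGGAAG on either strand, a core bound by ETS factors such as ERG, or the CArG box bound by serum response factor. No match of one overlapped a match of the other.
Flt1, chr5:147726012-147726261, minus strand: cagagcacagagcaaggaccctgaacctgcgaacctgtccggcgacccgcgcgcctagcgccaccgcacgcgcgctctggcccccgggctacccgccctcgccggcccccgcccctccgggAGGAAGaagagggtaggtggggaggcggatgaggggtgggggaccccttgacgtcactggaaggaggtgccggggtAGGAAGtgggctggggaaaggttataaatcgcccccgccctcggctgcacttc
Cd34, chr1:194938571-194938818, plus strand: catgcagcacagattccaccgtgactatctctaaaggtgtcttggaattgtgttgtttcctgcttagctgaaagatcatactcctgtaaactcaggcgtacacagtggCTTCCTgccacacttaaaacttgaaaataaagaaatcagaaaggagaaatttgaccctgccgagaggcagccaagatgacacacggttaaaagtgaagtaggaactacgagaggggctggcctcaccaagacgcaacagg
Cldn5, chr16:18776597-18776846, plus strand: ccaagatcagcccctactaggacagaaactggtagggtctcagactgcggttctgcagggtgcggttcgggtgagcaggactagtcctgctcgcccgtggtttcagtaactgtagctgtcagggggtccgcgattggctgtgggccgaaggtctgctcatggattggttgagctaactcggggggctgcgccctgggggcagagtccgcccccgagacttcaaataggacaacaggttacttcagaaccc
Kcnj8, chr6:142571615-142571864, minus strand: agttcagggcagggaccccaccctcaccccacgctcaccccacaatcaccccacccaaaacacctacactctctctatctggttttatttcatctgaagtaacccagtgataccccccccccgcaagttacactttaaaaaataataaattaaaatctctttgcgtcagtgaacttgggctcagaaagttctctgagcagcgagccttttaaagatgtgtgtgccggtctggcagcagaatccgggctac
Myl9, chr2:156775214-156775419, plus strand: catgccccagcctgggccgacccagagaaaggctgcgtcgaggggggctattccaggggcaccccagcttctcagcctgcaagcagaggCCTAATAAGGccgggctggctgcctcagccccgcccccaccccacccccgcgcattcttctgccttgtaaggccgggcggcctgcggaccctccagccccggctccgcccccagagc

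RefSeq windows of 250 bases before a start were found for 23 of the 31 members, 14 endothelial and 9 mural. The hexamer AGGAAG lay in 10 of 20 endothelial windows, in 9 of the 14 genes, and in 0 of 9 mural windows. It lay in 29.5% of all 32851 windows in the table. Several endothelial genes have more than 1 window, and those of Ocln and of Ly6c1 overlap. The CArG box was matched in 1 member window, that of Myl9, and in 1.47% of all windows. These counts describe letters in short windows, not sites in use, and a gene without a match may hold one elsewhere.

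Total counts per library ran from 17262042 to 29310193. Control replicate 3 stood apart on the first principal component (36.4% of the variance), at 46.8 against -17.5 to -4.25 in the other libraries. Its striatal genes averaged -1.41 and its thalamic genes 0.93 on the log2 scale relative to the mean of all 6 libraries, against 0.15 to 0.54 and -0.32 to -0.10 in the others. Control replicate 1 was the only library with more than 1 count of the Y-linked Ddx3y (1123 counts). Xist, a transcript of female cells, was at 3 counts there and at 20196 to 27661 counts in the other libraries. By these counts the only male was a control, and all 3 cKO mice were female. An effect of sex was not tested. Parp1, the targeted gene, was at 90.8, 97.3 and 85.6 CPM (counts scaled to library size) in the controls and at 80.8, 79.7 and 79.1 CPM in the cKO libraries. Every cKO value lay below every control (log2 fold change -0.19, edgeR adjusted p = 0.572), and 11.9% of all tested genes had groups that did not overlap in either direction. Neural tissue was checked on 6 general neuronal markers, which summed to 4331 to 4817 CPM per library. These markers do not test the brain region.

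No vessel gene of the list passed the test at postnatal day 9. None (0) of the 18 endothelial and none (0) of the 13 mural genes was called by edgeR's quasi-likelihood test at an adjusted p under 0.05, where 0.266% of the 16938 tested genes were called. DESeq2 and limma-voom called 0 of both lists as well. At an unadjusted p under 0.05 there were 0 endothelial and 2 mural genes by edgeR, against 6.27% of all genes, and 0 and 2 by DESeq2 and 1 and 2 by limma-voom. The 95% confidence interval of the fold change lay within 2-fold in either direction for 30 of the 31 genes. The exception was Cnn1, which had 6 to 18 counts per library. Within 1.5-fold lay the intervals of 17 of the 18 endothelial genes, all but Sox17, and of 4 of the 13 mural genes, Vtn, Notch3, Tagln and Myl9. In the same libraries 7 of 10 oligodendrocyte lineage markers were called lower by edgeR. All 10 estimates were below 0, with a median log2 fold change of -1.34.

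The median log2 fold change was 0.07 over the endothelial and 0.15 over the mural genes, beside -0.00 over all tested genes. Estimates were above 0 for 15 of the 18 endothelial (83.3%) and 10 of the 13 mural genes (76.9%), beside 49.8% of all tested genes. Members of a list share their libraries, and 1 library set the endothelial count. Without cKO replicate 2, 6 of the 18 endothelial estimates were above 0 and their median was -0.03, and without cKO replicate 3 the median was 0.17. The mural median was 0.05 when control replicate 3 was left out, with 0 genes at an unadjusted p under 0.05. It was 0.07 when cKO replicate 1 was left out and 0.09 for control replicate 2. Leaving out control replicate 1 or cKO replicate 3 gave 0.27 and 0.28.

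**Figure D1:**
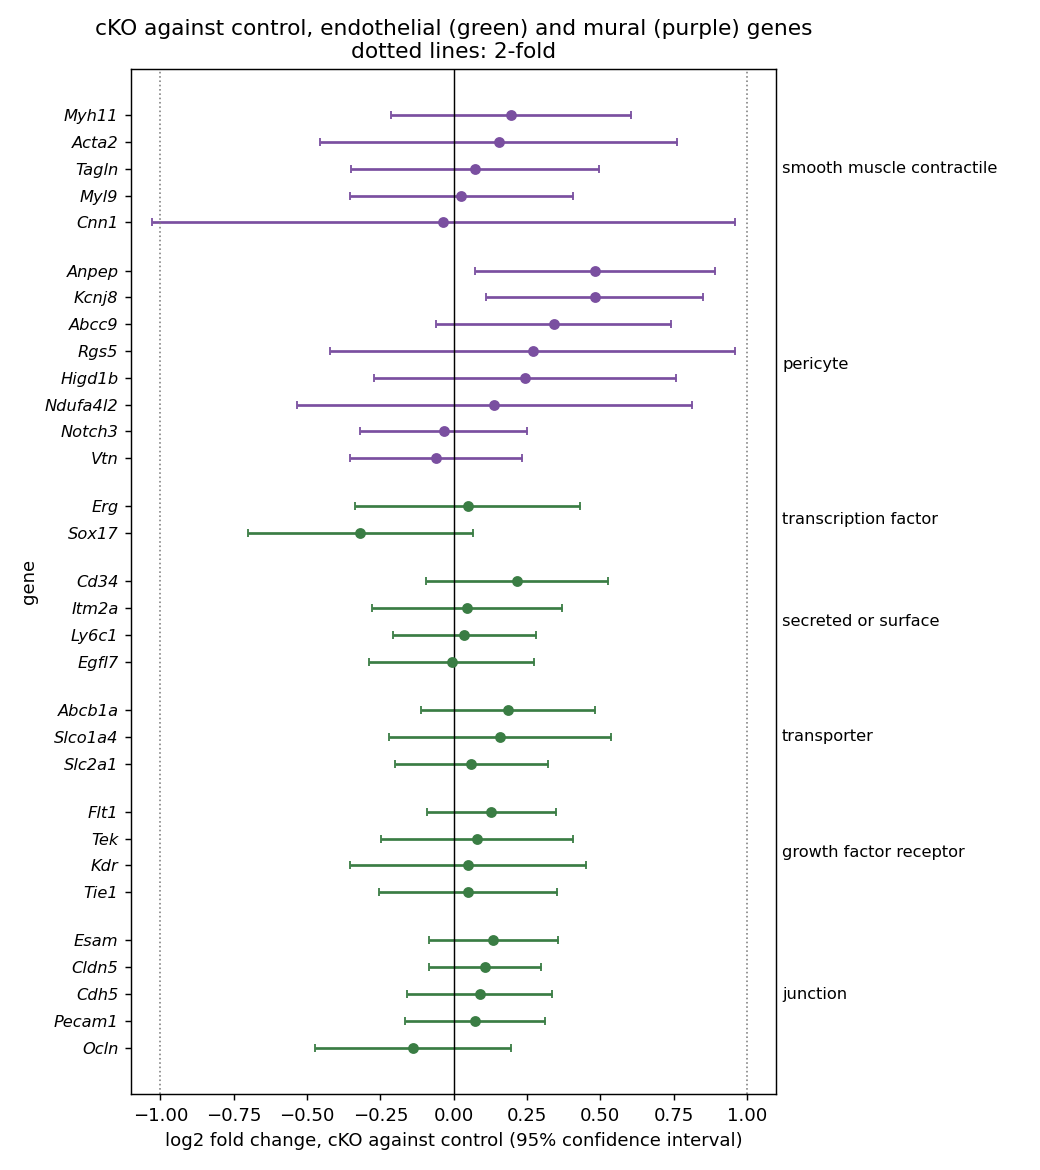
Log2 fold change of cKO against control for each member, with its 95% confidence interval, by edgeR from 3 libraries per group. Genes are grouped by role, endothelial in green and mural in purple, and dotted lines mark 2-fold. Every interval but that of Cnn1 lies inside these lines, and those of Kcnj8 and Anpep alone lie to one side of 0.

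Per unit of gene length, the vessel genes spanned a wide range of levels. On the deposited FPKM scale (fragments per kilobase of gene, scaled to library size), averaged over the 6 libraries, Cldn5 was highest of all members at 43.1, followed by Slc2a1 at 33.8 and Itm2a at 33.6. Ly6c1 at 26.01 and Vtn at 25.5 came next, then Rgs5 at 21.8 and Esam at 19.3. Of the 31 members 29 averaged at least 1 FPKM. The lowest were the contractile genes Myh11 at 0.66 and Cnn1 at 0.203. The contractile marker Acta2 was at 2.51 and the pericyte gene Kcnj8 at 2.36. The other contractile genes were Tagln at 3.99 and Myl9 at 6.93. Like Acta2 and Kcnj8, they lay within the range of the endothelial genes, whose lowest was Sox17 at 1.89.

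**Figure D2:**
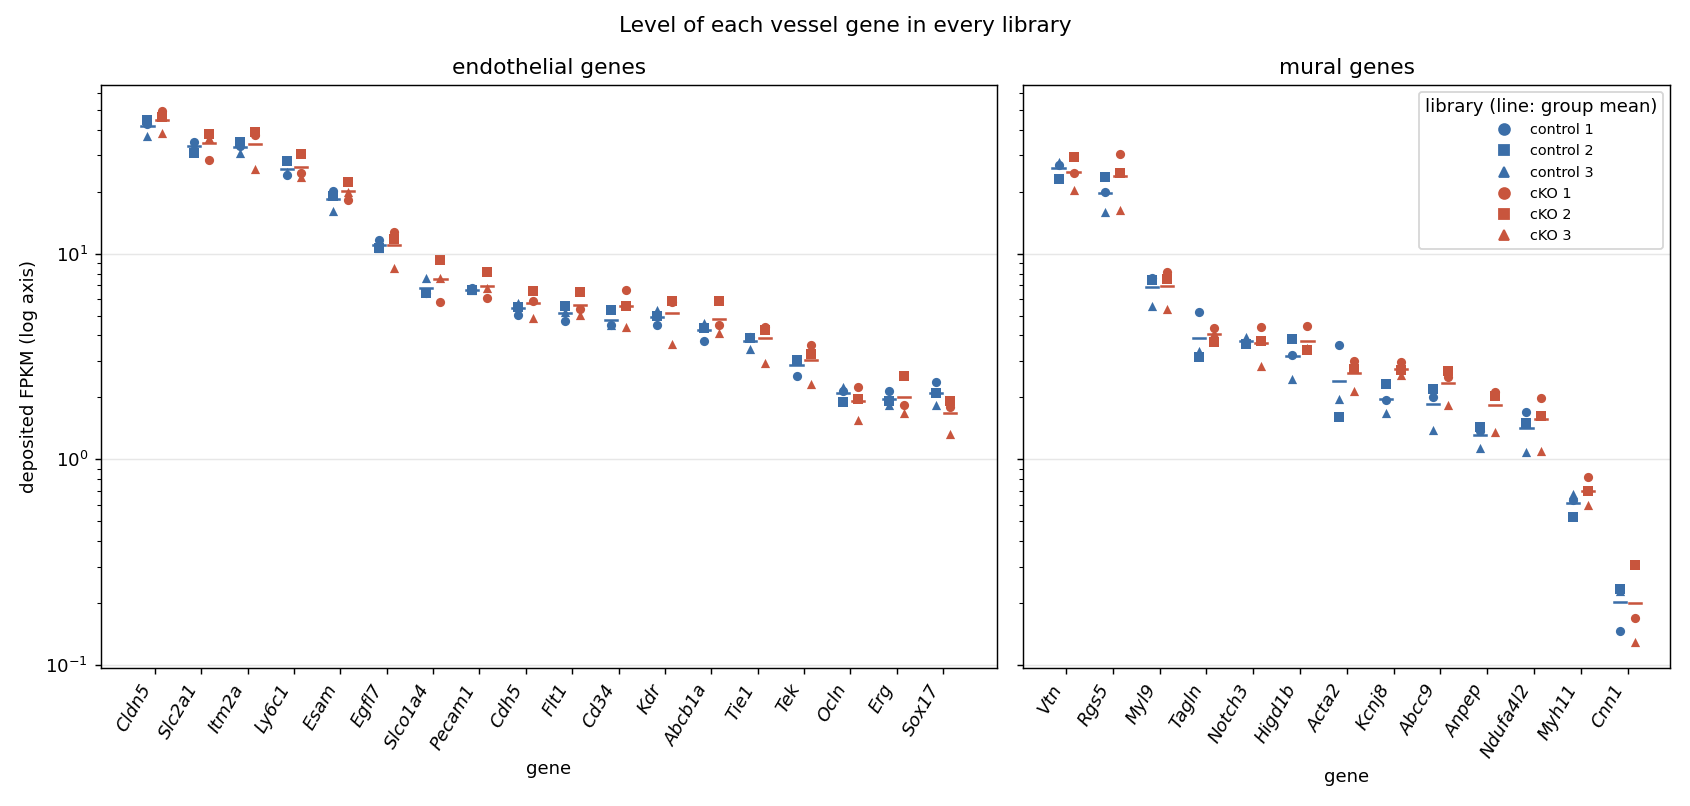
Deposited FPKM (log axis) of each endothelial gene (left) and mural gene (right) in the 3 control (blue) and 3 cKO (red) libraries, ordered by mean, with a line at each group mean. The groups overlap for every gene but Kcnj8, from Cldn5 at a mean of 43.1 down to Cnn1 at 0.203.

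The junction genes of the endothelium overlapped between the groups, and none was called by edgeR. Cldn5 encodes claudin-5, the main sealing protein of the tight junctions of brain endothelium (ENSMUSG00000041378, chromosome 16, 18776847 to 18778262 in mm10). It was at 60.3, 62.5 and 53.2 CPM in control replicates 1 to 3 and at 68.2, 65.6 and 55.9 CPM in cKO replicates 1 to 3. The groups overlapped, since cKO replicate 3 lay below control replicates 1 and 2 (log2 fold change 0.11, 95% interval -0.08 to 0.30, edgeR adjusted p = 0.883). Cdh5, the endothelial cadherin of adherens junctions, was at 20.0, 21.8 and 23.2 CPM in controls and at 22.9, 26.5 and 19.8 CPM in cKO. Here the cKO group held both the highest and the lowest library (log2 fold change 0.09, interval -0.16 to 0.33, adjusted p = 0.929).

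Pecam1, the adhesion molecule CD31 found at contacts of all endothelial cells, was at 23.3, 22.6 and 23.0 CPM in controls and at 20.5, 28.0 and 23.8 CPM in cKO. The 3 controls were almost equal, and the cKO libraries lay on both sides of them (log2 fold change 0.07, interval -0.17 to 0.31, edgeR adjusted p = 0.941). Esam, an adhesion molecule of endothelial tight junctions, was at 37.6, 35.4 and 30.3 CPM in controls and at 33.4, 41.8 and 38.1 CPM in cKO. Its estimate was 0.14 (interval -0.08 to 0.36, adjusted p = 0.866), with overlapping groups. Ocln, which encodes occludin, was the 1 junction gene with an estimate below 0, at -0.14 (interval -0.47 to 0.20).

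All 4 growth factor receptors had estimates close to 0. Flt1 encodes VEGF receptor 1, which binds VEGF tightly and limits its action (chromosome 5, 147561604 to 147726011). It was at 32.3, 38.0 and 36.0 CPM in controls and at 36.4, 44.9 and 35.2 CPM in cKO, and cKO replicate 2 stood above an otherwise shared range (log2 fold change 0.13, interval -0.09 to 0.35, edgeR adjusted p = 0.879). Kdr, the main signalling receptor for VEGF, had an estimate of 0.05 and the widest interval of the 4, from -0.35 to 0.45. Its cKO libraries were at 33.9, 35.2 and 22.0 CPM, the last of them below every control. Tek and Tie1, the angiopoietin receptor and its partner, were at 0.08 (interval -0.25 to 0.41) and 0.05 (interval -0.25 to 0.35).

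The barrier transporters overlapped between groups as well. Slc2a1 encodes GLUT1, the glucose carrier of brain endothelium, which astrocytes also express. It was at 90.8, 79.5 and 89.2 CPM in controls and at 72.9, 100.5 and 96.8 CPM in cKO, where cKO replicate 1 was the lowest library of all (log2 fold change 0.06, interval -0.20 to 0.32, edgeR adjusted p = 0.949). Abcb1a, the efflux pump P-glycoprotein, was at 18.7, 21.5 and 23.3 CPM in controls and at 22.0, 29.4 and 20.9 CPM in cKO. Only cKO replicate 2 exceeded the controls (log2 fold change 0.18, interval -0.11 to 0.48, adjusted p = 0.864). Slco1a4, an organic anion transporter, was at 0.16 (interval -0.22 to 0.54). Abcb1a and Slco1a4 belong to families with close relatives, and reads shared between copies would make their counts uncertain.

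The transcription factor Sox17, which acts in arterial and barrier endothelium, had the lowest estimate of all 31 members. It was at 7.39, 6.49 and 5.79 CPM in controls and at 5.53, 6.02 and 4.24 CPM in cKO. The groups overlapped at control replicate 3 and cKO replicate 2 (log2 fold change -0.32, interval -0.70 to 0.07, edgeR adjusted p = 0.836, exact two-sided permutation p = 0.2). Erg, the ETS factor that maintains endothelial identity, was at 0.05 (interval -0.34 to 0.43).

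Cd34, a sialomucin of endothelial surfaces, had the highest endothelial estimate. It was at 11.7, 13.8 and 11.9 CPM in controls and at 17.2, 14.7 and 11.7 CPM in cKO, so 1 cKO library lay at the bottom of the control range (log2 fold change 0.22, interval -0.10 to 0.53, edgeR adjusted p = 0.854). The other surface or secreted genes stayed closer to 0. Egfl7, a secreted matrix protein of sprouting endothelium, was at -0.01, Ly6c1, a surface antigen with near-identical relatives, at 0.04, and the X-linked Itm2a at 0.05. Their intervals together ran from -0.29 to 0.37.

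Among mural genes the pericyte genes had a median log2 fold change of 0.26 and the contractile genes one of 0.07. The pericyte genes Kcnj8 and Anpep had the smallest p-values of all members. Kcnj8 encodes Kir6.1, the pore of an ATP-sensitive potassium channel of pericytes (ENSMUSG00000030247, chromosome 6, 142564837 to 142571614). It was at 4.22, 5.01 and 3.70 CPM in controls, from 73, 109 and 81 counts, and at 6.36, 6.02 and 5.70 CPM in cKO. Every cKO value lay above every control. Groups did not overlap, in either direction, for 1 of the 31 members and for 11.9% of all tested genes. Its log2 fold change was 0.48 (interval 0.11 to 0.85), but the gene was not called (edgeR adjusted p = 0.628). Its exact permutation p, two-sided, was 0.1, and no smaller value is possible with 3 mice per group.

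Abcc9, which encodes SUR2, the regulatory subunit of that channel, lies 16247 bp from Kcnj8 on the same strand. It was at 15.01, 16.3 and 10.6 CPM in controls and at 18.5, 20.4 and 14.2 CPM in cKO. Control replicate 3 was the lowest library, and cKO replicate 3 fell inside the control range (log2 fold change 0.34, interval -0.06 to 0.74, edgeR adjusted p = 0.835). Anpep, the aminopeptidase CD13 of pericytes and also of fibroblasts, was at 5.20, 5.38 and 4.33 CPM in controls and at 7.89, 7.75 and 5.25 CPM in cKO. The overlap again came from cKO replicate 3 (log2 fold change 0.48, interval 0.07 to 0.89, adjusted p = 0.719, exact permutation p = 0.2).

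Rgs5, a regulator of G-protein signalling and a classical pericyte marker, varied as widely within groups as between them. It was at 81.1, 95.4 and 66.0 CPM in controls and at 123, 102 and 68.0 CPM in cKO. Replicate 3 was the lowest library within each group (log2 fold change 0.27, interval -0.42 to 0.96, edgeR adjusted p = 0.905). Higd1b, a small mitochondrial protein of pericytes, was at 2.37, 2.81 and 1.83 CPM in controls and at 3.21, 2.504 and 2.61 CPM in cKO, from 40 to 75 counts per library (0.24, interval -0.27 to 0.76, adjusted p = 0.902). The remaining pericyte genes were Ndufa4l2 at 0.14, the Notch receptor Notch3 at -0.03, and Vtn, which encodes the matrix protein vitronectin, at -0.06. Notch3 and Vtn, at 30.1 and 45.4 CPM in controls, had intervals from -0.32 to 0.25 and from -0.35 to 0.23.

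The contractile genes of smooth muscle were low, and the differences between their libraries did not follow the groups. Acta2, smooth muscle alpha-actin, was at 6.41, 2.85 and 3.51 CPM in controls and at 5.28, 4.93 and 3.90 CPM in cKO. Both the highest and the lowest library were controls (log2 fold change 0.15, interval -0.45 to 0.76, edgeR adjusted p = 0.948). Tagln, the actin-binding protein transgelin, was at 8.26, 4.92 and 5.38 CPM in controls and at 6.81, 5.94 and 6.64 CPM in cKO (0.07, interval -0.35 to 0.49, adjusted p = 0.965). As for Acta2, control replicate 1 was its highest and control replicate 2 its lowest library. Exons of Tagln overlap those of Pcsk7 and Gm48529 on the opposite strand by 1349 of 1988 bp. The strand setting of the counting is not given in the sources used here, so the Tagln count is less certain.

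Myh11, the heavy chain of smooth muscle myosin, was at 4.22, 3.45 and 4.56 CPM in controls and at 5.33, 4.68 and 4.03 CPM in cKO. These ranges overlapped (log2 fold change 0.19, interval -0.21 to 0.60, edgeR adjusted p = 0.902). Myl9, a regulatory light chain of myosin, was at 0.03 (interval -0.36 to 0.41), and Cnn1, calponin 1, at -0.04 with an interval from -1.03 to 0.96. The interval of Cnn1, at 6 to 18 counts per library, includes a 1.5-fold difference in either direction.

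Seen by library, the cKO mice differed from each other. Of the 18 endothelial genes 11 were highest in cKO replicate 2 and 10 were lowest in cKO replicate 3, both in the same group. The mean log2 deviation of the endothelial genes from their average over all libraries was -0.03, -0.01 and -0.02 in controls and 0.03, 0.21 and -0.17 in cKO. Controls were thus nearly equal to each other, and the cKO libraries lay on both sides of them. Of the 8 pericyte genes 6 were highest in cKO replicate 1 and 6 were lowest in control replicate 3. Their mean deviation was -0.05, 0.01 and -0.30 in controls and 0.31, 0.21 and -0.18 in cKO. The ratio of the highest to the lowest library ran from 1.28 for Ly6c1 and Cldn5 to 2.32 for Cnn1.

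**Figure D3:**
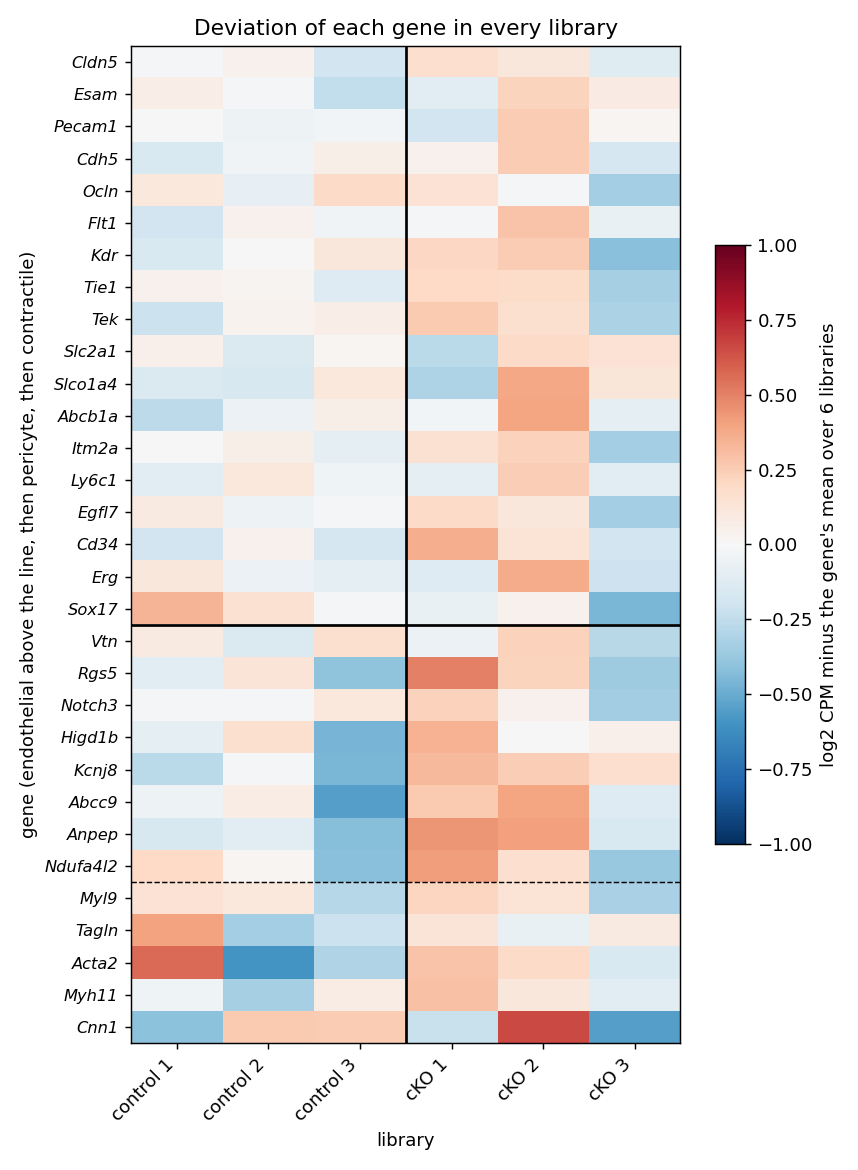
Log2 CPM of each member in each library, as the difference from that gene's mean over the 6 libraries (red higher, blue lower), with control left and cKO right of the vertical line. Most endothelial genes are red in cKO replicate 2 and blue in cKO replicate 3, and 6 of the 8 pericyte genes are lowest in control replicate 3.

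Markers of other cells at the vessel were read in the same libraries. The 8 fibroblast markers had mean deviations of -0.50, -0.33 and 0.13 in controls and of 0.58, 0.52 and -0.41 in cKO. Within cKO, replicates 1 and 2 were high and replicate 3 low, as for pericyte genes. Within controls, replicate 3 was highest for fibroblast markers but lowest for pericyte genes (-0.30). The third cKO library was also low for endothelial (-0.17) and contractile genes (-0.20). The summed level of the fibroblast markers ran from 114 to 168 CPM in controls and from 123 to 248 CPM in cKO. All 8 estimates were above 0 and none (0) was called by edgeR, with 2 (25%) at an unadjusted p under 0.05. None of the 8 was at 0 counts in every library. Of the 8 microglial markers, with a median of 0.41, none (0) was called either. However, 6 of them (75%) had an unadjusted p under 0.05, beside 6.27% of all tested genes. Groups did not overlap for 6 of the 8 (75%), beside 11.9% of all tested genes in either direction. Astrocyte and neuron markers had medians of 0.04 and 0.01. The part of fibroblasts or microglia in the mural estimates was not tested.

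**Figure D4:**
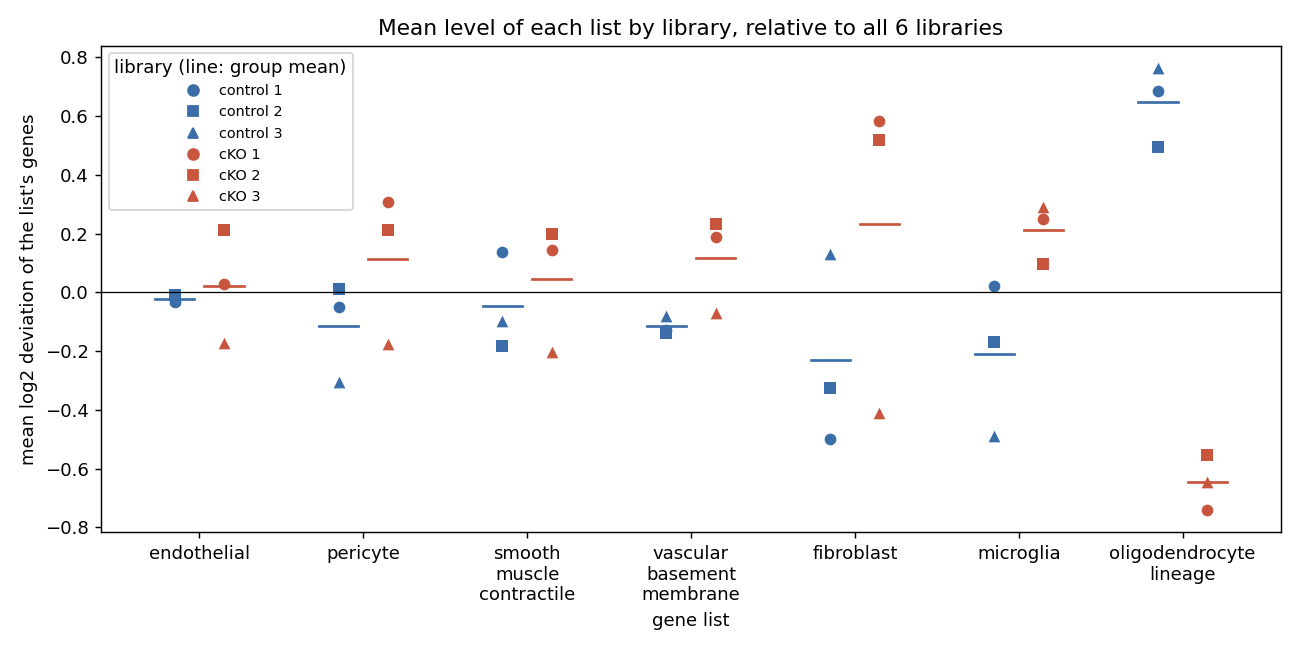
Mean log2 deviation of the genes of 7 lists in each library, relative to the mean of all 6 libraries, with a line at each group mean (control blue, cKO red). Oligodendrocyte lineage markers separate the groups, from 0.49 to 0.76 in controls and from -0.74 to -0.55 in cKO. So do microglial markers, from -0.49 to 0.02 in controls and from 0.10 to 0.29 in cKO. Basement membrane genes separate narrowly, from -0.14 to -0.08 in controls and from -0.07 to 0.23 in cKO. Endothelial, pericyte and contractile genes overlap, with the third cKO library low in each.

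No other mural gene and no signal that recruits mural cells was called. Pdgfrb, the receptor through which endothelial platelet-derived growth factor recruits pericytes, was at 32.7, 32.4 and 30.7 CPM in controls and at 40.0, 42.5 and 36.3 CPM in cKO. All cKO values exceeded all controls (log2 fold change 0.31, interval 0.13 to 0.49, exact permutation p = 0.1), and the gene was not called (edgeR adjusted p = 0.278). Tbx18, a transcription factor of mural cells and fibroblasts, was at 4.33, 4.69 and 5.43 CPM in controls and at 10.1, 9.53 and 6.85 CPM in cKO (0.86, interval 0.48 to 1.25, adjusted p = 0.105). Cspg4, the NG2 proteoglycan of both pericytes and oligodendrocyte precursors, was at 63.5, 44.1 and 55.8 CPM in controls and at 26.6, 35.0 and 31.1 CPM in cKO, opposite in direction to Pdgfrb and Tbx18 (-0.81, adjusted p = 0.118). Of the 21 other mural genes tested none (0) was called by edgeR, and the median was 0.07. An unadjusted p under 0.05 was found for 5 of them (23.8%), beside 6.27% of all tested genes. Groups did not overlap for 5 of the 21 (23.8%), beside 11.9% of all tested genes in either direction.

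Signals between endothelium and mural cells gave the same count, 0 of 16 called by edgeR. At an unadjusted p under 0.05 were 3 of the 16 (18.75%), beside 6.27% of all tested genes. Tgfbr2, a receptor for transforming growth factor beta, was at 20.2, 19.8 and 17.8 CPM in controls and at 22.6, 25.0 and 25.9 CPM in cKO (log2 fold change 0.35, interval 0.14 to 0.55, adjusted p = 0.313). Its groups did not overlap, as for 4 of the 16 genes (25%), beside 11.9% of all tested genes in either direction. Serum response factor and its coactivators had 3 tested genes with log2 fold changes from 0.08 to 0.13 and 0 called by edgeR (0 at an unadjusted p under 0.05). The coactivators Mrtfb and Mrtfa were at 0.13 and 0.09 (adjusted p = 0.850 and 0.883).

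The vascular basement membrane is the sheet of collagen IV, laminins, nidogens and perlecan that endothelial and mural cells lay down together. All 12 of its genes had estimates above 0, with a median of 0.25, but none (0) was called by edgeR. Unadjusted p was under 0.05 for 4 of them (33.3%), beside 6.27% of all tested genes. Groups did not overlap for 5 of the 12 genes (41.7%), beside 11.9% of all tested genes in either direction. Col4a1, a collagen IV chain, was at 153, 176 and 167 CPM in controls and at 233, 239 and 193 CPM in cKO (log2 fold change 0.42, interval 0.24 to 0.61, adjusted p = 0.102). Hspg2, which encodes perlecan, was at 25.2, 21.3 and 23.4 CPM in controls and at 33.0, 34.9 and 26.6 CPM in cKO (0.43, adjusted p = 0.255). For both genes cKO replicate 3 was the cKO library nearest to the controls, as for the fibroblast markers and the pericyte genes. Fibroblasts and other cells also express these genes, and their part was not tested.

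None of the signals to the growing endothelium was called. Of the 10 genes of VEGF and angiopoietin signalling 0 were called by edgeR, with a median of -0.00. An unadjusted p under 0.05 was found for 1 (10%), beside 6.27% of all tested genes. Estimates ran from -0.36 to 0.43, and 4 of the 10 intervals lay within 1.5-fold. The gene with the smallest p was Vegfc, a lymphatic and endothelial growth factor, at 3.98, 3.96 and 3.01 CPM in controls and 4.83, 4.72 and 5.18 CPM in cKO (adjusted p = 0.758). Ptprb, a phosphatase of endothelial cells that acts on Tek, was at 0.17 (interval -0.02 to 0.37, edgeR adjusted p = 0.835). Of the 10 tip cell genes 0 were called and 0 had an unadjusted p under 0.05, with a median of 0.01 and 7 of the 10 intervals within 2-fold. Nid2 and Adm had the smallest p-values there, with estimates of 0.31 and 0.52 (adjusted p = 0.816 and 0.86 by edgeR).

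Of the 17 genes of Wnt signalling to brain endothelium 0 were called by edgeR. Unadjusted p was under 0.05 for 1 of them (5.88%), beside 6.27% of all tested genes. Wnt7b, a ligand made by neural cells, was at -0.18 (interval -0.42 to 0.05, edgeR adjusted p = 0.839). Mfsd2a, the lysolipid transporter of the blood-brain barrier and a target of this pathway, was at 34.7, 38.6 and 37.6 CPM in controls and at 27.1, 30.1 and 17.8 CPM in cKO. All cKO values lay below all controls (log2 fold change -0.57, interval -0.99 to -0.15, adjusted p = 0.619). Groups did not overlap for 1 of the 17 genes (5.88%), beside 11.9% of all tested genes in either direction. Which cells of the forebrain gave the Mfsd2a reads was not tested.

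Among 17 other barrier junction and transporter genes, Mfsd2a included, 0 were called by edgeR. At an unadjusted p under 0.05 were 3 of them (17.6%), beside 6.27% of all tested genes. Jam2, a junctional adhesion molecule, was at 39.1, 39.2 and 33.3 CPM in controls and at 31.8, 32.5 and 29.1 CPM in cKO (log2 fold change -0.26, interval -0.45 to -0.07, adjusted p = 0.589). Of the 22 other endothelial genes 0 were called and 5 (22.7%) had an unadjusted p under 0.05, with a median of 0.12. Eng, the endothelial co-receptor endoglin, was at 0.32 and Clec14a, a surface lectin of endothelium, at 0.35 (adjusted p = 0.627 and 0.711). Of 11 arterial and venous genes 0 were called and 1 (9.09%) had an unadjusted p under 0.05. This was Vwf, von Willebrand factor, at 0.18 (adjusted p = 0.768), and Sema3g, an arterial semaphorin, was at 0.28 (adjusted p = 0.844).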

How the data were processed

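Poly-A RNA of the forebrain of 6 mice (3 cKO, 3 control) was sequenced, and the labels name a directional kit. The authors deposited whole-number read counts per Ensembl gene, not normalised. The submitters' processing notes list CASAVA, STAR 2.5, HTSeq 0.6.1, DESeq 2.1.6.3 and mm10, with no roles. For strand setting and annotation release, the sources used here say nothing. The deposited FPKM values equalled the deposited count divided by 1 length per gene and by the library total (length whole within 0.01 bp in 100% of values above 0), so they are the same measurement. They were used to compare levels between genes.

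Identifiers were named by GENCODE M21 (34490 of 35275), whose coordinates are on mm10. The counts were tested with edgeR 4.0.16 in R 4.3.3: filterByExpr (minimum count 10, minimum total 15; 16938 genes left), TMM scaling, the robust quasi-likelihood test of cKO against control, two-sided, with Benjamini-Hochberg adjustment over all tested genes and calls at an adjusted p under 0.05. CPM are TMM-normalised, and intervals are at 95%. All adjusted p-values are from this fit unless another tool is named. Total counts ran from 17262042 to 29310193. The scripts were tested on simulated data. Each library is 1 mouse. The edgeR p-values and intervals rest on the spread between 3 mice per group, with each gene's spread drawn towards that of the other tested genes.

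Exons of 9 members overlap a gene on the opposite strand (Abcb1a, Abcc9, Cd34, Egfl7, Ndufa4l2, Notch3, Slc2a1, Sox17 and Tagln), which makes their counts less certain. The members and lists were chosen with earlier results of these data known, and lists are described by counts and medians only. Values in every library are given for the 5 endothelial and 5 mural members with the smallest p, for Cldn5, Pecam1, Cdh5, Slc2a1, Rgs5, Pdgfrb, Acta2 and Tagln in any case, and the 2 genes with the smallest p of each of 10 related lists are named. Mkl1 and Mkl2 were found as Mrtfa and Mrtfb. The alternatives were 3 other scalings, 2 other filters, DESeq2 1.42.0, limma-voom (limma 3.58.1) with quality weights, no robust dispersion, limma on log2 FPKM with pseudocounts of 1 and 0.1 (genes averaging 0.5 FPKM or more) and with 1 and no filter, a replicate block, and each library left out in turn.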

Additional observations from a re-analysis of the deposited data

How the results depend on the processing

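None (0) of the 31 members was called under any of the 18 alternatives, and the lowest adjusted p of a member was 0.384 (Anpep by edgeR without cKO replicate 3). The number of genes called over the whole table, 45, was 111 without a filter, 113 by DESeq2, and, by limma on log2 FPKM, 23 with a pseudocount of 1 and 18 with 0.1 (genes averaging 0.5 FPKM or more) and 15 with 1 and no filter. The cause was not tested. Leaving out 1 library at a time gave 28 to 60. Over the same fits the endothelial median ran from -0.03 to 0.17 and the mural median from 0.05 to 0.28. The sign of the estimate was the same in every alternative for 13 of the 31 members, and the 3 other scalings turned none. Cnn1 had no value in the 3 alternatives whose filter removed it. With the replicate number as a block, 32 genes and 0 members were called, with medians of 0.06 (endothelial) and 0.19 (mural). Same-numbered libraries did not deviate together from their group means (correlations 0.01, -0.04 and 0.01). Such correlations, from 3 libraries per group, cannot decide whether the numbers pair the mice. With 3 mice per group, the data do not tell apart differences inside a printed interval.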

Other observations

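Transcripts of red blood cells differed more between libraries than any vessel gene. The 5 tested blood genes (haemoglobin chains and Alas2) summed to 187, 43.4 and 7.98 CPM in control replicates 1 to 3 and to 114, 18.3 and 9.46 CPM in cKO replicates 1 to 3. The groups overlapped, and 0 of the 5 genes were called by edgeR (0 at an unadjusted p under 0.05). Hba-a2 and Hba-a1, alpha-globin genes whose near-identical copies can share reads, had log2 fold changes of -1.24 and -0.88 with adjusted p = 0.904 and 0.948. Endothelial genes did not follow this order, since control replicates 1 and 3 had endothelial deviations of -0.03 and -0.02.

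Choroid plexus markers, epithelial genes of the ventricles, summed to 667 to 830 CPM in controls and 718 to 773 CPM in cKO. Their median log2 fold change was -0.25, and 0 of 7 tested genes were called by edgeR (0 at an unadjusted p under 0.05).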
